A study of Agaricus bisporus with 12 samples.

Results

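Compost colonised by the white button mushroom, Agaricus bisporus, was sampled for RNA at 6 stages of indoor cultivation with 2 libraries a stage, and the comparison described here sets the last of those stages against the first. The libraries were chosen by their stage label alone, 2 labelled after second flush and 2 labelled spawning stage, so 4 of the 12 libraries were compared. The after second flush compost had already carried 2 flushes, the waves in which mushrooms appear and are picked. The spawning compost had been inoculated with spawn and kept for 16 days at 25 °C, until the mycelium had grown through it, and had not yet borne mushrooms. This incubation is given for the samples of every stage, those after second flush included, so it does not set the stages apart. All samples shared the commercial heterokaryon A15 (a strain whose cells carry nuclei of more than 1 parent) and a phase II compost of wheat straw, horse and chicken manure and gypsum. Between the compared stages the colonised compost received its casing, the covering layer of peat with lime on which mushrooms form. RNA was isolated from frozen compost, not from picked mushrooms, so each library mixes mycelium of all ages in the sample, and fewer cells of a type and less RNA per cell cannot be told apart. The labels do not tell if the 2 libraries sharing a stage stem from different beds, and p-values therefore measure only the spread between these libraries, which may be technical.

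As background, A. bisporus is a litter-decomposing basidiomycete that lives on the plant polymers and the microbial biomass of composted straw. Laccases and manganese peroxidase oxidise phenols and lignin outside the hypha, cellulases and xylanases then release sugars from cellulose and xylan, and secreted proteases release peptides. The sugars taken up pass through glycolysis and the pentose phosphate pathway, and much of the carbon is stored and carried to the mushrooms as mannitol, a sugar alcohol. Hydrophobins are small secreted proteins that coat hyphae and let them grow into air, and ergosterol is the sterol of fungal membranes. The series asks which plant-degrading functions the mycelium expresses at each stage of its life cycle.

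Unique reads in genes totalled 9.18 M and 9.22 M in the after second flush libraries and 7.27 M and 7.43 M in the spawning libraries, and 9191 to 9253 genes had a read in each. Levels are given in RPKM as deposited (reads per kilobase of gene, scaled to library depth), which is a scale on which genes of different length can be compared. Differences are given as log2 changes, after second flush over spawning, with the standard error of the fit. They come from edgeR's quasi-likelihood test on the counts of all 12 libraries, and genes with an adjusted p under 0.05 (Benjamini-Hochberg, over the 8814 tested) were called. Libraries of the same stage correlated at 0.988 (after second flush) and 0.991 (spawning) in log2 CPM across genes, against 0.868 to 0.889 between the stages, where genes are not independent replicates. Among the genes given library by library below, the RPKM ranges of the stages overlapped in ubiquitin C, undescribed gene 189491, hydrophobin-1, pectate lyase 139877 and urease, and in no others.

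Most of the transcriptome differed between the end of cultivation and spawning. Of 8814 genes tested, 5249 were called (59.6%), of which 2815 were higher after second flush (31.9%) and 2434 were lower (27.6%), while 3565 were not called. Many calls were small, and 1609 of the higher and 1130 of the lower genes changed over 2-fold. At the extremes, 43 genes were over 16-fold higher and 62 were over 16-fold lower, and 8 and 15 genes passed 64-fold. The middle 95% of genes lay between log2 changes of −2.28 and 2.51, with a median of 0.06.

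How the libraries are scaled moved the balance of calls. The main fit scaled libraries by TMM, which assumes that most genes do not change, and gave 53.6% of calls as higher. Scaled by library total alone, the median gene lay 0.30 higher on the log2 scale and 71.3% of calls were higher (3803 higher and 1528 lower), and 49.6% were higher with DESeq2's size factors (2597 and 2644). No gene called in one direction with TMM was called in the other with either scaling. A small set of genes held a larger part of the reads at spawning, where the 10 genes with most reads took 9.17% and 9.46% of them, against 4.77% and 4.90% after second flush. A log2 change given here is therefore about 0.30 below the log2 ratio of the printed RPKM values, and changes of that size or less depend on the scaling.

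**Figure D1:**
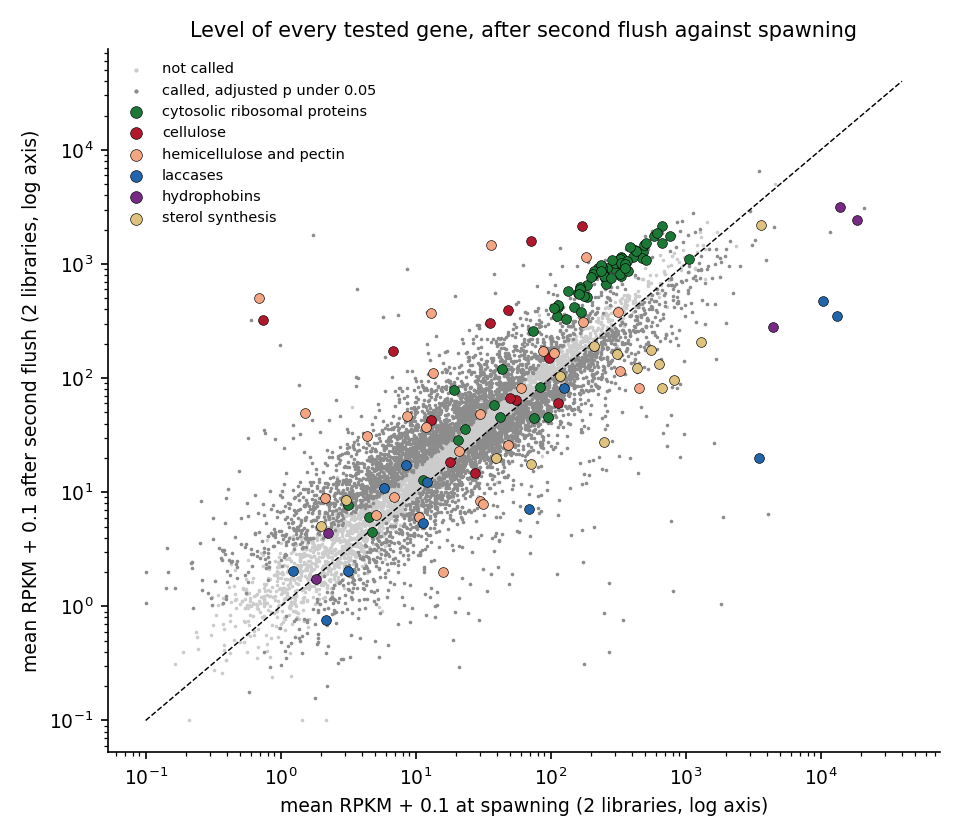
Mean level of each of the 8814 tested genes in RPKM plus 0.1, after second flush (vertical, log axis) against spawning (horizontal, log axis), as means of 2 libraries each, with called genes in dark grey, members of 6 gene lists in colour and a dashed line where the levels are equal. Cytosolic ribosomal protein genes and the most abundant cellulose and xylan genes lie above the line, and laccases 1 to 3, the abundant hydrophobins and most sterol genes lie below it.

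The samples were first checked for mushroom tissue, using tyrosinases (enzymes that darken mushroom flesh) and lectins as markers. Together the 10 marker genes held 0.0308% and 0.0301% of the reads after second flush, against 0.0385% and 0.0357% at spawning. None of the 10 was at 0 in any of the 4 libraries, and the lowest (tyrosinase, gene 191530) had 0.815 and 0.985 RPKM after second flush, against 0.441 and 0.575 RPKM at spawning. The most abundant marker, an XCL-like lectin (gene 194894), had 141 and 128 RPKM after second flush, against 111 and 120 RPKM at spawning (log2 change −0.08 ± 0.68, edgeR adjusted p = 0.93), whereas its mean at pinning, the stage of primordia, was 1419 RPKM. A tyrosinase (gene 191507) rose, with 48.8 and 56.2 RPKM in the after second flush libraries and 4.05 and 6.45 RPKM in the spawning libraries (log2 change 3.02 ± 0.48, edgeR adjusted p = 0.00079), and had means of 148 RPKM at first flush and 148 RPKM at second flush. A further 4 markers fell, among them tyrosinase gene 135027 with 19.3 and 13.6 RPKM after second flush, against 90.9 and 70.6 RPKM at spawning, and 5 were not called (median log2 change −0.65 over the 10). The part of mushroom tissue in the results below was not tested beyond these values.

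The enzymes that oxidise lignin were among the largest falls. Of the 12 genes of the laccase list, 0 rose, 7 fell and 5 were not called by edgeR (median log2 change −1.19, against 0.06 over all genes). No member rose at an unadjusted p under 0.05, and DESeq2 and limma called 0 higher as well, while the fit on the 4 libraries alone called 1, and 2 with the replicate block. Together they held 0.156% and 0.0947% of the reads after second flush, against 2.99% and 3.14% at spawning.

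Laccase-1 (gene 146228), a secreted phenol oxidase, had 24.5 and 14.9 RPKM after second flush, against 3368 and 3601 RPKM at spawning (log2 change −7.78 ± 0.67, edgeR adjusted p = 2.9e-05). Laccase-2 (gene 139148) had 626 and 325 RPKM after second flush, against 10219 and 10737 RPKM at spawning (log2 change −4.78 ± 1.02, edgeR adjusted p = 0.0053). The laccase-2 small subunit (gene 149407), a protein that pairs with the catalytic chain, had 446 and 247 RPKM after second flush, against 12945 and 13334 RPKM at spawning (log2 change −5.56 ± 0.63, edgeR adjusted p = 0.00015). For these abundant genes the stages did not overlap, and replicate 1 after second flush stood above replicate 2 in each while the spawning libraries lay close together. Laccase-3 (gene 184981) had 3.9 and 10 RPKM in the after second flush libraries and 71.4 and 67.7 RPKM in the spawning libraries (log2 change −3.61 ± 0.56, edgeR adjusted p = 0.00077). The other called laccases were minor transcripts or changed less, from laccase-10 (gene 120944, log2 change −1.95 ± 0.46) to laccase-9 (gene 194714, −0.93 ± 0.16), which kept 73.9 and 88.5 RPKM after second flush, against 124 and 127 RPKM at spawning. Laccase-9 thereby had a higher level after second flush than laccase-1, the reverse of their order at spawning. Laccase-7 (gene 117501) had 22.9 and 11.5 RPKM after second flush, against 7.79 and 8.95 RPKM at spawning and was not called (edgeR adjusted p = 0.18). Only uniquely placed reads were counted, so levels of close paralogs such as laccases and hydrophobins are uncertain.

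Manganese peroxidase (gene 221245), the only secreted heme peroxidase among the described genes, had 39.6 and 24.6 RPKM after second flush, against 976 and 960 RPKM at spawning (log2 change −5.23 ± 0.32, edgeR adjusted p = 1e-06). Its range in spawning compost was narrow, and each after second flush library was far under it. The gene for a predicted 2,3-dihydroxybenzoate decarboxylase (gene 210050), which would take the carboxyl group off an aromatic acid, had 2.09 and 1.6 RPKM after second flush, against 117 and 106 RPKM at spawning (log2 change −6.21 ± 0.26, edgeR adjusted p = 6.1e-08). Over the 29 genes of aromatic ring metabolism 8 rose and 12 fell (median log2 change −0.44), and the counts were 9 higher and 7 lower with library total scaling. The members that rose included NADPH:quinone reductases, which reduce quinones. Of these, gene 193600 had 139 and 143 RPKM after second flush, against 25.9 and 22.5 RPKM at spawning (log2 change 2.24 ± 0.20, edgeR adjusted p = 3.8e-06). Phenol 2-monooxygenase gene 185850, a phenol hydroxylase, fell, with 17.3 and 32.2 RPKM after second flush, against 70.5 and 71.6 RPKM at spawning (log2 change −1.82 ± 0.28, edgeR adjusted p = 0.00035). Phenol 2-monooxygenase gene 194127 rose, with 26.5 and 17.8 RPKM after second flush, against 7.99 and 7.68 RPKM at spawning (log2 change 1.19 ± 0.21, edgeR adjusted p = 0.00048), so genes with the same description moved in opposite directions.

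The most abundant transcripts changed places. The 5 genes with the highest mean RPKM after second flush were elongation factor 1-alpha, ubiquitin, hydrophobin 136569 and the undescribed genes 136557 and 189491, and at spawning they were gene 136557, hydrophobins 193057 and 136569, the laccase-2 small subunit and the undescribed gene 71560. Hydrophobin gene 193057 had 1950 and 2888 RPKM after second flush, against 17929 and 19525 RPKM at spawning (log2 change −3.25 ± 0.33, edgeR adjusted p = 2.3e-05). Hydrophobin gene 136569 had 2922 and 3417 RPKM after second flush, against 14278 and 13513 RPKM at spawning (log2 change −2.43 ± 0.16, edgeR adjusted p = 7.3e-07). Hydrophobin gene 193052 had 265 and 302 RPKM after second flush, against 4208 and 4624 RPKM at spawning (log2 change −4.26 ± 0.32, edgeR adjusted p = 3.5e-06). All 3 fell without overlap and were still among the abundant transcripts after second flush. The undescribed gene 136557 likewise fell and varied more between the late libraries, with 2183 and 3979 RPKM after second flush, against 21000 and 21166 RPKM at spawning (log2 change −3.07 ± 0.31, edgeR adjusted p = 2.1e-05). Gene 71560 had 1691 and 2118 RPKM after second flush, against 11368 and 11962 RPKM at spawning (log2 change −2.91 ± 0.24, edgeR adjusted p = 2.6e-06).

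By contrast, elongation factor 1-alpha (gene 133083), which brings aminoacyl-tRNA to the ribosome, had 6232 and 6771 RPKM after second flush, against 3649 and 3375 RPKM at spawning. Its call (log2 change 0.59 ± 0.22, edgeR adjusted p = 0.041) was lost with DESeq2's size factors and with any of the 4 libraries left out. Ubiquitin C (gene 133168), which encodes the protein tag for degradation, had 4545 and 5554 RPKM after second flush, against 4367 and 4767 RPKM at spawning and was not called (log2 change −0.16 ± 0.16, edgeR adjusted p = 0.43). Undescribed gene 189491 had 3008 and 2822 RPKM after second flush, against 2916 and 3084 RPKM at spawning, and its call as lower (log2 change −0.35 ± 0.13, edgeR adjusted p = 0.041) was lost under 9 of 13 other settings. All 3 thus entered the late top 5 with changes of under 2-fold. Of the 7 hydrophobin genes 5 were tested, and 0 rose, 3 fell and 2 were not called (median log2 change −2.43; at an unadjusted p under 0.05 edgeR had 0 higher, DESeq2 called 0, and limma and library total scaling 1). Hydrophobin-1 (gene 133693), known from the mushroom skin of this species, stayed near the floor in both stages, with 1.85 and 1.38 RPKM after second flush, against 1.56 and 1.91 RPKM at spawning (log2 change −0.40 ± 2.68, edgeR adjusted p = 0.91).

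**Figure D2:**
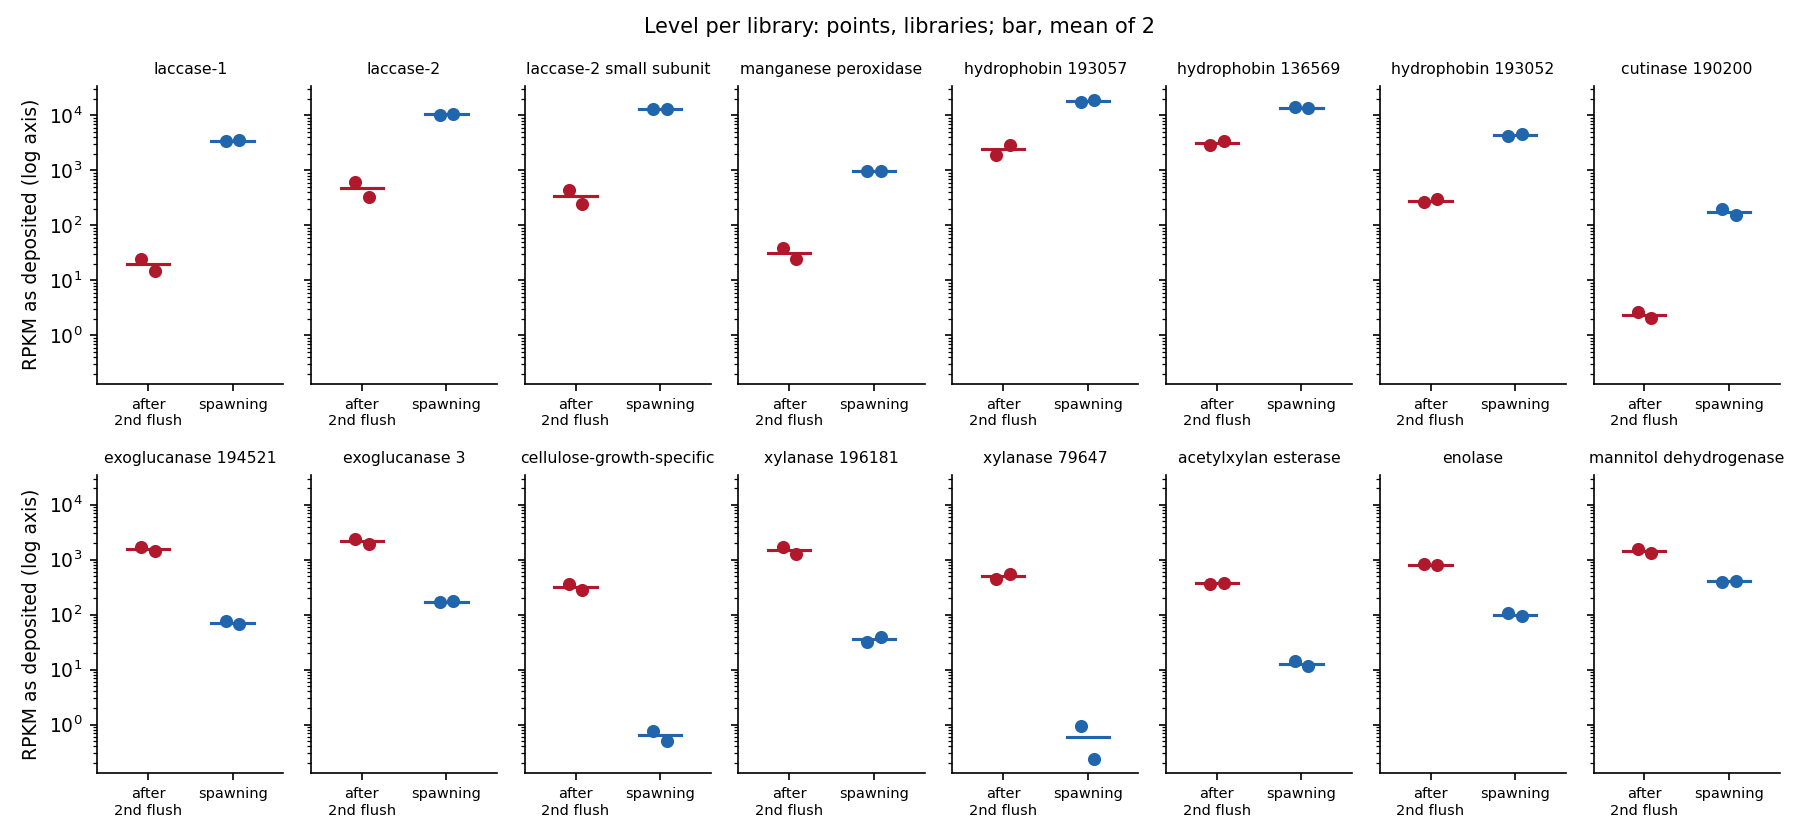
Level of 16 genes in each library, in RPKM on a log axis, with after second flush in red on the left of each panel and spawning in blue on the right, points for libraries and bars for the mean of 2. The 8 genes of the upper row (laccases, manganese peroxidase, hydrophobins and a cutinase) are lower after second flush and the 8 of the lower row (cellulose and xylan genes, enolase and mannitol dehydrogenase) are higher, with no overlap between the stages in any panel.

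Enzymes that cut the polysaccharides of the plant wall moved the other way. Of 13 cellulose genes 7 rose, 2 fell and 4 were not called (median log2 change 1.46), and the list held 0.939% and 0.79% of the reads after second flush, against 0.153% and 0.145% at spawning. Of 26 tested genes for hemicellulose and pectin 11 rose, 7 fell and 8 were not called (median log2 change 0.37), with 0.705% and 0.583% of the reads after second flush, against 0.36% and 0.375% at spawning. Only 4 of the cellulose genes were called higher without spawning replicate 2.

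Exoglucanases, which release cellobiose from the ends of cellulose chains, were the most abundant of the cellulose list after second flush. Exoglucanase gene 194521 had 1691 and 1468 RPKM after second flush, against 77.3 and 66.7 RPKM at spawning (log2 change 4.15 ± 0.96, edgeR adjusted p = 0.0079). Exoglucanase 3 (gene 190390) had 2382 and 1967 RPKM after second flush, against 169 and 175 RPKM at spawning (log2 change 3.35 ± 0.90, edgeR adjusted p = 0.015). In both genes the stages were far apart and the libraries of a stage close, yet the first call was lost without spawning replicate 2 and the second without either spawning library. In the fit, the spread of these genes is shared with the libraries from after first flush, which differed from each other (for gene 194521, 21.4 and 196 RPKM). Fitted on the 4 compared libraries alone, the adjusted p was 3.6e-07 for gene 194521 and 8e-07 for gene 190390. The cellulose-growth-specific protein (gene 226235), named for its induction on cellulose in this species, was nearly silent in spawning compost, with 361 and 280 RPKM after second flush, against 0.775 and 0.505 RPKM at spawning (log2 change 8.64 ± 1.35, edgeR adjusted p = 0.0012). The values rest on 3536 and 2749 reads after second flush and 6 and 4 reads at spawning. Endoglucanase gene 194478, which cuts within cellulose chains, had 191 and 157 RPKM after second flush, against 6.16 and 7.17 RPKM at spawning (log2 change 4.40 ± 0.65, edgeR adjusted p = 0.00072). 2 further endoglucanases (genes 191420 and 189329) had log2 changes of 2.71 ± 0.66 and 2.78 ± 0.42. The endoglucanase call for gene 191420 (adjusted p = 0.0088) was lost without spawning replicate 2. The 2 members that fell were β-glucosidase gene 195052, a cellobiose-splitting enzyme with 66.2 and 54 RPKM after second flush, against 118 and 111 RPKM at spawning (log2 change −1.24 ± 0.15), and endoglucanase gene 150171 (log2 change −1.22 ± 0.25).

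Xylanases, which cut the xylan backbone of straw hemicellulose, included the largest rise among the described genes named by the rule. Xylanase gene 79647 had 445 and 553 RPKM after second flush, against 0.956 and 0.234 RPKM at spawning (log2 change 9.40 ± 1.78, edgeR adjusted p = 0.003), from 4709 and 5876 reads after second flush and 8 and 2 reads at spawning. Xylanase gene 196181, the most abundant of the hemicellulose list, had 1705 and 1246 RPKM after second flush, against 32.2 and 40 RPKM at spawning (log2 change 5.04 ± 0.98, edgeR adjusted p = 0.0036). Xylanase gene 192194 had 53.7 and 46 RPKM after second flush, against 1.75 and 1.07 RPKM at spawning (log2 change 4.83 ± 0.63, edgeR adjusted p = 0.00024). In each of these genes both after second flush libraries stood many times above both spawning libraries. Acetylxylan esterase (gene 196213), which removes acetyl groups from xylan, had 356 and 383 RPKM after second flush, against 14.1 and 11.5 RPKM at spawning (log2 change 4.55 ± 0.61, edgeR adjusted p = 0.0004). The mannanase CEL4a (gene 192609), which cuts mannan, had 122 and 97.4 RPKM after second flush, against 13.6 and 13.3 RPKM at spawning (log2 change 2.73 ± 0.52, edgeR adjusted p = 0.0025). These accessory and mannan enzymes were low at spawning in both libraries. CEL6 protein (gene 214617) had 110 and 88.1 RPKM after second flush, against 4.39 and 2.89 RPKM at spawning (log2 change 4.46 ± 0.64, edgeR adjusted p = 0.0006). Xylanase gene 133541 had 1134 and 1153 RPKM after second flush, against 168 and 195 RPKM at spawning, but its call (edgeR adjusted p = 0.022) was lost when any of the 4 libraries was left out. The xylanases of this list therefore differed in how firmly their rise was fixed. Xylanase gene 191440, with 200 and 148 RPKM after second flush, against 96.1 and 80.7 RPKM at spawning, was not called (edgeR adjusted p = 0.18).

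Several enzymes that trim side chains or pectin fell. Arabinofuranosidase (gene 194576), which removes arabinose from xylan, had 100 and 62.3 RPKM after second flush, against 443 and 468 RPKM at spawning (log2 change −2.80 ± 0.33, edgeR adjusted p = 7.3e-05). A gene annotated as α-xyloside xylohydrolase (gene 75421) had 1.45 and 1.06 RPKM after second flush, against 31.6 and 35.9 RPKM at spawning (log2 change −5.05 ± 0.30, edgeR adjusted p = 4e-07). Polygalacturonase (gene 229720), which cuts pectin, had 2.54 and 1.31 RPKM after second flush, against 14.8 and 16.7 RPKM at spawning (log2 change −3.34 ± 0.70, edgeR adjusted p = 0.0029). Replicate 1 was the higher of the after second flush libraries in each of these. β-Galactosidase gene 152299 also fell, with 122 and 110 RPKM after second flush, against 341 and 316 RPKM at spawning (log2 change −1.81 ± 0.44, edgeR adjusted p = 0.007). Pectin genes did not move as a block, since pectinesterase gene 179502 rose (log2 change 1.35 ± 0.30) and the more abundant pectate lyase gene 139877 was not called, with 485 and 273 RPKM after second flush, against 250 and 385 RPKM at spawning. All 4 cutinases, which split the polyester of the plant cuticle, were called lower, by very different amounts. Cutinase gene 190200 had 2.65 and 2.05 RPKM after second flush, against 196 and 153 RPKM at spawning (log2 change −6.51 ± 0.23, edgeR adjusted p = 2.3e-08). Cutinase gene 183005 had 1.11 and 1.84 RPKM after second flush, against 53.4 and 44.2 RPKM at spawning (log2 change −5.32 ± 0.30, edgeR adjusted p = 3e-07). Both were near silent after second flush. The other two fell by less, gene 190202 with a log2 change of −1.61 ± 0.26 and gene 176382 with −1.08 ± 0.36, a call lost under 6 of 13 other settings, among them without either spawning replicate and without after second flush replicate 2 (adjusted p = 0.052 to 0.14, edgeR). The lipase and cutinase list counted 6 higher and 18 lower of 41 tested (median log2 change −0.57).

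Glycolysis genes were higher at the end of cultivation. Of 12 glycolysis genes 9 rose, 2 fell and 1 was not called (median log2 change 2.03), and the list held 0.697% and 0.647% of the reads after second flush, against 0.283% and 0.265% at spawning. Triosephosphate isomerase (gene 195423), which interconverts the triose phosphates, had 264 and 285 RPKM after second flush, against 29.8 and 28.7 RPKM at spawning (log2 change 2.93 ± 0.22, edgeR adjusted p = 1.3e-06). Enolase (gene 189297), which makes phosphoenolpyruvate, had 837 and 788 RPKM after second flush, against 105 and 93.9 RPKM at spawning (log2 change 2.73 ± 0.31, edgeR adjusted p = 4.4e-05). Aldolase (gene 192128), phosphoglycerate kinase (gene 190666), hexokinase gene 194802 and phosphofructokinase (gene 191352) had log2 changes of 2.70 ± 0.14, 2.65 ± 0.18, 2.33 ± 0.19 and 1.75 ± 0.24. The rise thus ran through most steps from glucose to phosphoenolpyruvate. At the last step pyruvate kinase (gene 189950) had 565 and 552 RPKM after second flush, against 715 and 696 RPKM at spawning and was called lower (log2 change −0.64 ± 0.15, edgeR adjusted p = 0.0033), a call lost with library total scaling. The most abundant member, glyceraldehyde-3-phosphate dehydrogenase 2 (gene 138631), had 1962 and 1745 RPKM after second flush, against 695 and 647 RPKM at spawning (log2 change 1.16 ± 0.14, edgeR adjusted p = 3.1e-05), whereas isoform 1 (gene 153444), a minor transcript, fell, with 10.2 and 5.83 RPKM after second flush, against 14.1 and 14.7 RPKM at spawning (log2 change −1.16 ± 0.24, edgeR adjusted p = 0.0013).

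Genes listed under sugar alcohol and pentose metabolism, mostly of the pentose phosphate and mannitol routes, rose as a majority, 8 of 11 with 3 lower (median log2 change 1.49). They held 0.622% and 0.58% of the reads after second flush, against 0.181% and 0.174% at spawning. Transketolase gene 190736, which exchanges carbon units between sugar phosphates, had 317 and 278 RPKM after second flush, against 36 and 30.5 RPKM at spawning (log2 change 2.86 ± 0.37, edgeR adjusted p = 0.00017). The other transketolase of the list, the less abundant gene 183819, was called lower (log2 change −1.57 ± 0.25, edgeR adjusted p = 0.00027). 6-phosphogluconate dehydrogenase (gene 189765), a source of NADPH, had 962 and 956 RPKM after second flush, against 161 and 155 RPKM at spawning (log2 change 2.30 ± 0.20, edgeR adjusted p = 3.8e-06). NADP-dependent mannitol dehydrogenase (gene 194752), which makes mannitol from fructose in this species, had 1567 and 1343 RPKM after second flush, against 401 and 418 RPKM at spawning (log2 change 1.52 ± 0.22, edgeR adjusted p = 0.00013). These rises were near equal in both libraries of a stage. Mannitol-1-phosphate 5-dehydrogenase (gene 178863), the enzyme of the other route to mannitol, was the member that fell most, with 10.8 and 13.4 RPKM after second flush, against 42 and 39.9 RPKM at spawning (log2 change −2.06 ± 0.23, edgeR adjusted p = 2e-05). The genes of the 2 routes therefore moved in opposite directions, and the NADP-dependent enzyme was the far more abundant transcript in both stages.

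Several genes on the route from pyruvate to ethanol and lactate were higher. Pyruvate decarboxylase (gene 193820), the entry to ethanol, had 253 and 251 RPKM after second flush, against 70.2 and 76 RPKM at spawning (log2 change 1.48 ± 0.25, edgeR adjusted p = 0.00045). Alcohol dehydrogenase gene 193766 had 219 and 184 RPKM after second flush, against 41.8 and 36.5 RPKM at spawning (log2 change 2.06 ± 0.28, edgeR adjusted p = 0.00014). The alcohol dehydrogenase most abundant at spawning, gene 211948, fell, with 186 and 214 RPKM after second flush, against 367 and 312 RPKM at spawning (log2 change −1.06 ± 0.17, edgeR adjusted p = 0.0002). Alcohol dehydrogenase gene 194191 was not called (edgeR adjusted p = 0.87), and the list's other alcohol dehydrogenases were called higher, some with calls lost under other settings. D-lactate dehydrogenase (gene 217388), which reduces pyruvate to lactate, rose at a low level, with 12.5 and 10.9 RPKM in the after second flush libraries and 1.03 and 0.883 RPKM in the spawning libraries (log2 change 3.29 ± 0.29, edgeR adjusted p = 3.5e-06). Over the whole list of 21 tested genes 9 rose and 7 fell, or 4 without after second flush replicate 1 (median log2 change 0.55). The aldehyde dehydrogenases in it, which oxidise aldehydes to acids, went either way. Of these, gene 212840 fell by the most (log2 change −3.18 ± 0.25), and the abundant gene 196132 rose, with 608 and 525 RPKM after second flush, against 248 and 227 RPKM at spawning (log2 change 0.95 ± 0.23). The alternative oxidase (gene 152135), a bypass of the respiratory chain, had 251 and 310 RPKM after second flush, against 144 and 138 RPKM at spawning and was not called (log2 change 0.69 ± 0.59, edgeR adjusted p = 0.35). In the citric acid and glyoxylate cycles 8 of 26 genes rose and 7 fell (median log2 change 0.19), shares close to those over all genes, and the counts became 15 and 4 with library total scaling. NAD-malate dehydrogenase (gene 187815) had 1279 and 1431 RPKM after second flush, against 378 and 343 RPKM at spawning (log2 change 1.61 ± 0.14, edgeR adjusted p = 3.7e-06). Isocitrate lyase (gene 193793), which opens the glyoxylate cycle, had 342 and 392 RPKM after second flush, against 671 and 685 RPKM at spawning (log2 change −1.19 ± 0.28, edgeR adjusted p = 0.0041). Malate synthase (gene 188880), its partner in that cycle, was not called, with 701 and 622 RPKM after second flush, against 529 and 521 RPKM at spawning.

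Genes of the translation machinery formed the broadest rise. Of 75 cytosolic ribosomal protein genes 64 rose, 2 fell and 9 were not called (median log2 change 1.31), and they held 4.62% and 4.45% of the reads after second flush, against 1.73% and 1.59% at spawning. The most abundant, S25e (gene 191603), had 2148 and 2146 RPKM after second flush, against 704 and 628 RPKM at spawning (log2 change 1.39 ± 0.13, edgeR adjusted p = 5.7e-06). The largest rise was that of L28e (gene 189249), with 610 and 549 RPKM after second flush, against 146 and 122 RPKM at spawning (log2 change 1.81 ± 0.13, edgeR adjusted p = 1.2e-06). Both that fell were at low level. S24e (gene 182315) had 42 and 48.6 RPKM after second flush, against 93.7 and 97.9 RPKM at spawning (log2 change −1.38 ± 0.18). L8e gene 213432 had 41.7 and 48.3 RPKM after second flush, against 76.3 and 73.6 RPKM at spawning (log2 change −1.04 ± 0.13), beside a far more abundant L8e gene that rose (gene 135085, log2 change 1.09 ± 0.11). Among 8 elongation factor genes 6 rose and 2 fell (median log2 change 0.57), and only 3 were called higher without spawning replicate 2 or without after second flush replicate 2. Elongation factor 2 (gene 189532), which moves the ribosome along the message, had 1139 and 1148 RPKM after second flush, against 483 and 407 RPKM at spawning (log2 change 1.06 ± 0.21, edgeR adjusted p = 0.0012). Elongation factor 3 (gene 200379), a factor of fungal ribosomes, had 610 and 827 RPKM after second flush, against 1185 and 1194 RPKM at spawning (log2 change −1.02 ± 0.21, edgeR adjusted p = 0.0015).

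The respiratory chain followed with smaller changes, 34 of 52 tested genes higher, 6 lower and 12 not called (median log2 change 0.53), and 39 higher and 2 lower with library total scaling. Without spawning replicate 2 or after second flush replicate 1, 2 were called lower. The complex I subunit NdufA2 (gene 138930) had 99.9 and 92.1 RPKM after second flush, against 33.2 and 23.8 RPKM at spawning (log2 change 1.45 ± 0.16, edgeR adjusted p = 1.7e-05). Cytochrome c oxidase subunit 6a gene 186076 fell, with 21.2 and 21.7 RPKM after second flush, against 59.3 and 57.6 RPKM at spawning (log2 change −1.75 ± 0.19, edgeR adjusted p = 1.3e-05), while another gene described as COX6A (gene 133378) rose, with 294 and 310 RPKM after second flush, against 142 and 151 RPKM at spawning (log2 change 0.74 ± 0.12, edgeR adjusted p = 0.00021). The most abundant member, the ATP synthase beta subunit ATP2 (gene 190409), was at nearly the same RPKM in all 4 libraries, with 732 and 734 RPKM after second flush, against 779 and 779 RPKM at spawning, and its call as lower (log2 change −0.39 ± 0.15, edgeR adjusted p = 0.041) was lost under 8 of 13 other settings.

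Protein folding and breakdown were divided by machine. Over 81 chaperone genes 24 rose and 32 fell (median log2 change −0.15), and with library total scaling 32 rose and 22 fell. The heat shock proteins of the cytosol and the mitochondrion were among those that fell. HSP70 (gene 133986), the general folding chaperone, had 2224 and 2039 RPKM after second flush, against 4688 and 4407 RPKM at spawning (log2 change −1.40 ± 0.14, edgeR adjusted p = 7.8e-06). The mitochondrial chaperonin GroEL (gene 195187) had 216 and 283 RPKM after second flush, against 790 and 784 RPKM at spawning (log2 change −1.96 ± 0.18, edgeR adjusted p = 4.5e-06). The genes of the cytosolic chaperonin, whose clients include actin and tubulin, moved the other way. All of the 8 T-complex subunits listed (alpha to theta) were called higher, from theta (gene 221457, log2 change 0.47 ± 0.12) to beta (gene 177986, log2 change 1.49 ± 0.17). Of 5 genes for prefoldin, which hands unfolded chains to that chaperonin, 4 rose and 1 was not called. Its beta subunit (gene 61050) had 81.1 and 81.7 RPKM after second flush, against 9.77 and 5.4 RPKM at spawning (log2 change 3.12 ± 0.24, edgeR adjusted p = 1.4e-06).

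In the proteasome, which degrades tagged proteins, 27 of 46 genes rose, 4 fell and 15 were not called (median log2 change 0.72), with 0.802% and 0.794% of the reads after second flush, against 0.487% and 0.407% at spawning. The most abundant subunit, 20S alpha 2 (gene 184516), had 871 and 828 RPKM after second flush, against 401 and 348 RPKM at spawning (log2 change 0.88 ± 0.19, edgeR adjusted p = 0.0019). The largest rise was in a gene described as regulatory subunit 10 (gene 66741), with 46.7 and 45.6 RPKM after second flush, against 7.76 and 8.97 RPKM at spawning (log2 change 2.15 ± 0.23, edgeR adjusted p = 1.2e-05). Of the other genes with that description, gene 221164, a weak match, fell (log2 change −1.04 ± 0.27) and gene 203071 was not called (log2 change 0.03 ± 0.11). ECM29 (gene 66531), a proteasome-binding factor, fell, with 1.24 and 0.962 RPKM after second flush, against 13.3 and 12.1 RPKM at spawning (log2 change −3.81 ± 0.46, edgeR adjusted p = 3.2e-05). In the larger ubiquitin system 37 of 85 genes rose and 19 fell (median log2 change 0.28), or 10 with library total scaling. Of 9 autophagy genes 5 rose and 1 fell (median log2 change 0.58), a fall not called when any of the 4 libraries was left out. ATG5 (gene 185310), part of the conjugation machinery, had 48.6 and 45.4 RPKM after second flush, against 17.4 and 15.5 RPKM at spawning (log2 change 1.21 ± 0.13, edgeR adjusted p = 1.2e-05). Of 11 genes of the vacuolar proton pump, which acidifies the vacuole, 6 rose and 1 fell (median log2 change 0.94), and 0 fell with library total scaling. Subunit C (gene 190041) had 90.4 and 81.6 RPKM after second flush, against 18.1 and 15.2 RPKM at spawning (log2 change 2.07 ± 0.14, edgeR adjusted p = 8e-07).

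Proteases as a class were balanced, with 29 of 76 tested genes higher and 22 lower (median log2 change 0.07), and 1.73% and 1.67% of the reads after second flush, against 1.76% and 1.66% at spawning. The higher calls were 38.2% of those tested and the lower ones 28.9%, against 31.9% and 27.6% over all genes. The 5 genes that fell most are described as saccharopepsin or serine proteinase, enzymes that cut within proteins. Saccharopepsin gene 212363, an aspartic protease, had 0.341 and 0.085 RPKM after second flush, against 175 and 177 RPKM at spawning (log2 change −9.92 ± 0.58, edgeR adjusted p = 1.3e-06), from 4 and 1 reads after second flush and 1626 and 1679 reads at spawning. Serine proteinase gene 194648 had 89.7 and 73 RPKM after second flush, against 906 and 816 RPKM at spawning (log2 change −3.71 ± 0.30, edgeR adjusted p = 4.6e-06). Saccharopepsin gene 192428 had 102 and 65.3 RPKM after second flush, against 772 and 823 RPKM at spawning (log2 change −3.57 ± 0.44, edgeR adjusted p = 0.00017). The 6 genes that rose most are described as carboxypeptidases, dipeptidases and an iminopeptidase, which take residues from the ends of peptides. Proteases were not divided into such classes for a count. The largest of them, a carboxypeptidase D (gene 181785, log2 change 3.09 ± 0.65), remained a minor transcript. The Cys-Gly dipeptidase DUG1 (gene 138440), which splits a product of glutathione, had 153 and 119 RPKM after second flush, against 17.8 and 14 RPKM at spawning (log2 change 2.79 ± 0.17, edgeR adjusted p = 4.3e-07). Xaa-Pro dipeptidase gene 229306 had 244 and 193 RPKM after second flush, against 28 and 25.4 RPKM at spawning (log2 change 2.72 ± 0.17, edgeR adjusted p = 5.8e-07). Proline iminopeptidase gene 191415 had 545 and 544 RPKM after second flush, against 102 and 105 RPKM at spawning (log2 change 2.09 ± 0.14, edgeR adjusted p = 7.3e-07). Both after second flush libraries stood above both spawning libraries in these peptidases. Prolyl oligopeptidase (gene 219134), the most abundant of the list, fell, with 740 and 813 RPKM after second flush, against 1924 and 1673 RPKM at spawning (log2 change −1.51 ± 0.14, edgeR adjusted p = 5.5e-06).

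Among genes for the uptake of amino acids and peptides, 1 abundant transporter fell strongly. Of 15 transporter genes for amino acids, peptides and ammonium 3 rose, or 5 with library total scaling, and 7 fell (median log2 change −0.70), with 0.692% and 0.788% of the reads after second flush, against 1.24% and 1.27% at spawning. The most abundant member at both stages, the oligopeptide transporter gene 195475, had 971 and 1209 RPKM after second flush, against 3873 and 4024 RPKM at spawning (log2 change −2.16 ± 0.23, edgeR adjusted p = 1.5e-05). Without it the list held 0.504% and 0.554% of the reads after second flush, against 0.494% and 0.49% at spawning. A second oligopeptide transporter (gene 195900) rose, with 863 and 837 RPKM after second flush, against 407 and 340 RPKM at spawning (log2 change 0.89 ± 0.15, edgeR adjusted p = 0.00041). An amino acid transporter (gene 179516) had 67 and 73 RPKM after second flush, against 13.7 and 14.3 RPKM at spawning (log2 change 2.02 ± 0.16, edgeR adjusted p = 1.5e-06). Among 20 sugar transporters 4 rose and 9 fell (median log2 change −0.35). The largest fall was that of a transporter annotated for inositol (gene 185281), with 58.7 and 74.6 RPKM after second flush, against 241 and 263 RPKM at spawning (log2 change −2.22 ± 0.21, edgeR adjusted p = 6.7e-06). The largest rise was that of a sugar and proton symporter (gene 195468), with 463 and 349 RPKM after second flush, against 169 and 147 RPKM at spawning (log2 change 1.05 ± 0.22, edgeR adjusted p = 0.0015). The share of reads of the sugar transporters was similar at the end (0.410% and 0.381%) and at spawning (0.427% and 0.415%).

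Genes of nitrogen assimilation and amino acid breakdown were more often higher, 14 of 33, with 5 lower (median log2 change 0.35). NAD-specific glutamate dehydrogenase (gene 193606), which in fungi mostly releases ammonium from glutamate, had 273 and 266 RPKM after second flush, against 54.5 and 50.3 RPKM at spawning (log2 change 2.06 ± 0.15, edgeR adjusted p = 9.1e-07). The NADP-specific enzyme (gene 194435), which mostly fixes ammonium, had 48.7 and 29.8 RPKM after second flush, against 28.9 and 20.9 RPKM at spawning and was not called (log2 change 0.35 ± 0.66, edgeR adjusted p = 0.67). Arginase (gene 190399), which makes urea from arginine, had 74.9 and 79.6 RPKM after second flush, against 20.2 and 19.9 RPKM at spawning (log2 change 1.64 ± 0.16, edgeR adjusted p = 5.8e-06). Whether these changes differ from each other was not tested. All 4 genes described as urease accessory proteins rose, and gene 224101 had 109 and 114 RPKM after second flush, against 17.4 and 13.5 RPKM at spawning (log2 change 2.55 ± 0.18, edgeR adjusted p = 8.4e-07). These proteins load nickel into urease, which splits urea. Urease itself (gene 183828) was low and not called, with 6.7 and 5.67 RPKM after second flush, against 6.19 and 7.38 RPKM at spawning. Ornithine aminotransferase (gene 195122), the most abundant of the list, went the other way, with 971 and 949 RPKM after second flush, against 2596 and 2479 RPKM at spawning (log2 change −1.71 ± 0.19, edgeR adjusted p = 1.9e-05). The main glutamine synthetase (gene 135514), which builds ammonium into glutamine, had 1586 and 1850 RPKM after second flush, against 1254 and 1353 RPKM at spawning and was not called (log2 change 0.10 ± 0.15, edgeR adjusted p = 0.59). Far less abundant genes described as glutamine synthetase went both ways. Gene 190294 rose (log2 change 1.72 ± 0.13), gene 190495 fell (−1.34 ± 0.26) and gene 190498 was not called (0.20 ± 0.45).

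Among lists of 10 or more tested genes, sterol synthesis had the largest part called lower. Of 15 genes 13 fell, or 11 with library total scaling, and 2 rose (median log2 change −1.94). Together they held 0.548% and 0.684% of the reads after second flush, against 1.39% and 1.49% at spawning. The deepest falls were in late steps of ergosterol synthesis. C-8 sterol isomerase (gene 135078) had 23.4 and 31 RPKM after second flush, against 255 and 242 RPKM at spawning (log2 change −3.49 ± 0.36, edgeR adjusted p = 4.4e-05). The C-22 desaturase (gene 189837), a cytochrome P450, had 73.9 and 117 RPKM after second flush, against 806 and 831 RPKM at spawning (log2 change −3.40 ± 0.35, edgeR adjusted p = 4.1e-05). C5-sterol desaturase (gene 218236) had 54.1 and 108 RPKM after second flush, against 625 and 708 RPKM at spawning (log2 change −3.33 ± 0.41, edgeR adjusted p = 0.00014). In all 3 the spawning libraries lay close together and replicate 2 after second flush stood above replicate 1. Methylsterol monooxygenase (gene 228680) and sterol 14-demethylase CYP51 (gene 191124), the target of azole fungicides, had log2 changes of −2.93 ± 0.37 and −2.14 ± 0.31. Among early enzymes, hydroxymethylglutaryl-CoA reductase (gene 208992) had a log2 change of −1.22 ± 0.27 and squalene monooxygenase (gene 205454) one of −2.31 ± 0.21. The abundant hydroxymethylglutaryl-CoA synthase (gene 193269) had 2027 and 2399 RPKM after second flush, against 3404 and 3768 RPKM at spawning (edgeR adjusted p = 0.0011). The smallest falls were in later steps, delta14-sterol reductase (gene 191223, log2 change −0.49 ± 0.13) and sterol-4alpha-carboxylate 3-dehydrogenase (gene 193828, −0.44 ± 0.13). The calls of genes 191223 and 193828 were lost with library total scaling. Both that rose were minor, and their calls were lost under other settings. A second CYP51 gene (gene 73753) had 8.26 and 8.52 RPKM after second flush, against 2.26 and 3.68 RPKM at spawning (lost without spawning replicate 1 or either after second flush library), and a weak match to sterol methyltransferase (gene 217354, edgeR adjusted p = 0.046) was lost under 7 of 13 settings.

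Fatty acid genes moved less, with 5 of 43 higher and 14 lower (median log2 change −0.12), and 13 higher and 9 lower with library total scaling. Without spawning replicate 2 or after second flush replicate 1, 9 were called lower. Of 10 desaturase genes 3 fell, 2 rose and 5 were not called, against 27.6% lower and 31.9% higher over all genes. The call of 1 of those that rose (gene 209944) was lost when any of the 4 libraries was left out. Stearoyl-CoA desaturase gene 194591, which puts the first double bond into fatty acids, had 392 and 520 RPKM after second flush, against 1048 and 1160 RPKM at spawning (log2 change −1.57 ± 0.28, edgeR adjusted p = 0.00082). The abundant delta8 desaturase (gene 189913) went the other way, with 589 and 568 RPKM after second flush, against 279 and 267 RPKM at spawning (log2 change 0.78 ± 0.12, edgeR adjusted p = 0.00021). A fatty acid synthase gene (gene 217954, described as subunits alpha and beta), for the enzyme that builds the chains, fell, with 48 and 47.2 RPKM after second flush, against 102 and 104 RPKM at spawning (log2 change −1.42 ± 0.13, edgeR adjusted p = 5.3e-06). Acyl-CoA oxidase gene 225220, for the first step of peroxisomal breakdown, rose, with 153 and 167 RPKM after second flush, against 53 and 53.7 RPKM at spawning (log2 change 1.28 ± 0.17, edgeR adjusted p = 6e-05). The other acyl-CoA oxidases, genes 227257 and 227725, were not called (log2 changes 0.27 ± 0.12 and −0.12 ± 0.22, edgeR adjusted p = 0.075 and 0.67). Storage carbohydrate genes also fell by count, 12 of 18 lower and 2 higher (median log2 change −0.80), the higher ones being 0 without either spawning library, 1 without either after second flush library and 4 with library total scaling. Glycogen debranching enzyme gene 225252 had 50.3 and 103 RPKM after second flush, against 170 and 208 RPKM at spawning (log2 change −1.59 ± 0.34, edgeR adjusted p = 0.0032) and trehalase gene 134738, which splits the disaccharide trehalose, had 30.1 and 38 RPKM after second flush, against 76.4 and 71.1 RPKM at spawning (log2 change −1.41 ± 0.17, edgeR adjusted p = 3.9e-05). Glycogen phosphorylase (gene 209178), which releases glucose phosphate from glycogen, rose, with 57.1 and 49.1 RPKM after second flush, against 20.1 and 20.3 RPKM at spawning, but its call (log2 change 1.09 ± 0.30, edgeR adjusted p = 0.011) was lost when any of 3 libraries was left out.

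The fungus's own wall genes leaned lower: 10 of 46 tested genes for chitin and wall glucan rose and 20 fell (median log2 change −0.52), and 15 rose and 16 fell with library total scaling. Without spawning replicate 2, 6 were called higher. Chitin synthase gene 191834, the most abundant of them, had 358 and 363 RPKM after second flush, against 481 and 458 RPKM at spawning (log2 change −0.68 ± 0.12, edgeR adjusted p = 0.00056). The 1,3-β-glucan synthase (gene 226824) had 146 and 137 RPKM after second flush, against 284 and 278 RPKM at spawning (log2 change −1.29 ± 0.13, edgeR adjusted p = 7.6e-06). Chitinases, which cut chitin, were split. Chitinase gene 208788 rose, with 98.3 and 106 RPKM after second flush, against 21.2 and 25.6 RPKM at spawning (log2 change 1.82 ± 0.24, edgeR adjusted p = 8.7e-05). The more abundant chitinase gene 211936 fell, with 121 and 122 RPKM after second flush, against 278 and 281 RPKM at spawning (log2 change −1.50 ± 0.14, edgeR adjusted p = 4.2e-06). Chitin deacetylase gene 195080 had the largest fall of the list, with 0.626 and 1.25 RPKM after second flush, against 13.1 and 15.3 RPKM at spawning (log2 change −4.20 ± 0.38, edgeR adjusted p = 3.8e-06).

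Genes listed under peroxide turnover and detoxification fell more often than they rose. Among 36 tested genes listed as possible sources of hydrogen peroxide, the co-substrate of peroxidases, 10 rose and 16 fell (median log2 change −0.25). Nearly all are described as choline dehydrogenase, a name given here by similarity to a family of flavin oxidoreductases. What they oxidise, and whether they make peroxide, is therefore not known. Of these, gene 190928 had 96.5 and 130 RPKM after second flush, against 420 and 453 RPKM at spawning (log2 change −2.25 ± 0.29, edgeR adjusted p = 9.5e-05). The member that fell most, gene 203659, had 2.16 and 1.88 RPKM after second flush, against 32 and 31.1 RPKM at spawning (log2 change −4.26 ± 0.29, edgeR adjusted p = 7.3e-07). The member that rose most, gene 188178, stood as far the other way, with 107 and 97.6 RPKM after second flush, against 7.2 and 6.06 RPKM at spawning (log2 change 3.64 ± 0.23, edgeR adjusted p = 6.8e-07). No library of either stage came near the other stage in these genes. Glyoxal oxidase (gene 227686), a copper enzyme that makes peroxide, fell modestly, with 145 and 132 RPKM after second flush, against 194 and 203 RPKM at spawning (log2 change −0.83 ± 0.12, edgeR adjusted p = 0.00015). Of 44 genes for peroxide removal and redox defence 8 rose and 18 fell (median log2 change −0.15; 13 and 14 with library total scaling). The most abundant, a catalase (gene 195354), went against that count, with 1874 and 1681 RPKM after second flush, against 541 and 458 RPKM at spawning (log2 change 1.53 ± 0.28, edgeR adjusted p = 0.0011). Most of the 18 genes that fell were weak matches, and most of the 8 that rose were not. The deepest fall (gene 190985, log2 change −4.47 ± 0.29) was a weak match to peroxiredoxin, so the lean of this list rests on uncertain names.

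Cytochromes P450 and glutathione transferases, which modify aromatic and foreign compounds, had 11 of 59 tested genes higher and 26 lower (median log2 change −0.64). Glutathione transferase gene 193900 had 16.5 and 12.9 RPKM after second flush, against 432 and 452 RPKM at spawning (log2 change −5.21 ± 0.30, edgeR adjusted p = 7.3e-07). Glutathione transferase gene 193903 had 91 and 86.2 RPKM after second flush, against 919 and 904 RPKM at spawning (log2 change −3.67 ± 0.46, edgeR adjusted p = 0.00019). The most abundant of the list, glutathione transferase gene 193539, rose, with 2254 and 2259 RPKM after second flush, against 730 and 665 RPKM at spawning (log2 change 1.39 ± 0.35, edgeR adjusted p = 0.0072). Transferases thus include both the deepest fall and the highest level of the list. A cytochrome P450 of family 4 (gene 207457) had the largest rise, with 16.5 and 14.5 RPKM after second flush, against 2.37 and 2.55 RPKM at spawning (log2 change 2.35 ± 0.21, edgeR adjusted p = 3.5e-06).

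Cell cycle and DNA replication genes were more often higher, 43 of 79 with 9 lower (median log2 change 0.46), although 28 were called higher without spawning replicate 2. Those lower were 4 without spawning replicate 1, 5 without after second flush replicate 1 and 2 with library total scaling. The G1/S cyclin PLC1 (gene 69512) was by far the most abundant, with 2031 and 1786 RPKM after second flush, against 615 and 571 RPKM at spawning (log2 change 1.38 ± 0.15, edgeR adjusted p = 1.2e-05). A cyclin-dependent kinase (gene 228596) had the largest rise, with 62.1 and 70.1 RPKM after second flush, against 11.7 and 9.03 RPKM at spawning (log2 change 2.37 ± 0.19, edgeR adjusted p = 1.7e-06). Replication factors rose by less than that kinase. PCNA (gene 196191), the sliding clamp of DNA polymerase, had 124 and 131 RPKM after second flush, against 60.8 and 53.2 RPKM at spawning (log2 change 0.86 ± 0.12, edgeR adjusted p = 7.9e-05). The replication licensing factor CDC6 (gene 212703) had 28.8 and 28 RPKM after second flush, against 9.38 and 8.18 RPKM at spawning (log2 change 1.39 ± 0.19, edgeR adjusted p = 8e-05). Calls among the lower genes were small, the largest being that of the checkpoint protein BUB2 (gene 175704, a weak match) at a log2 change of −0.92 ± 0.15.

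**Figure D3:**
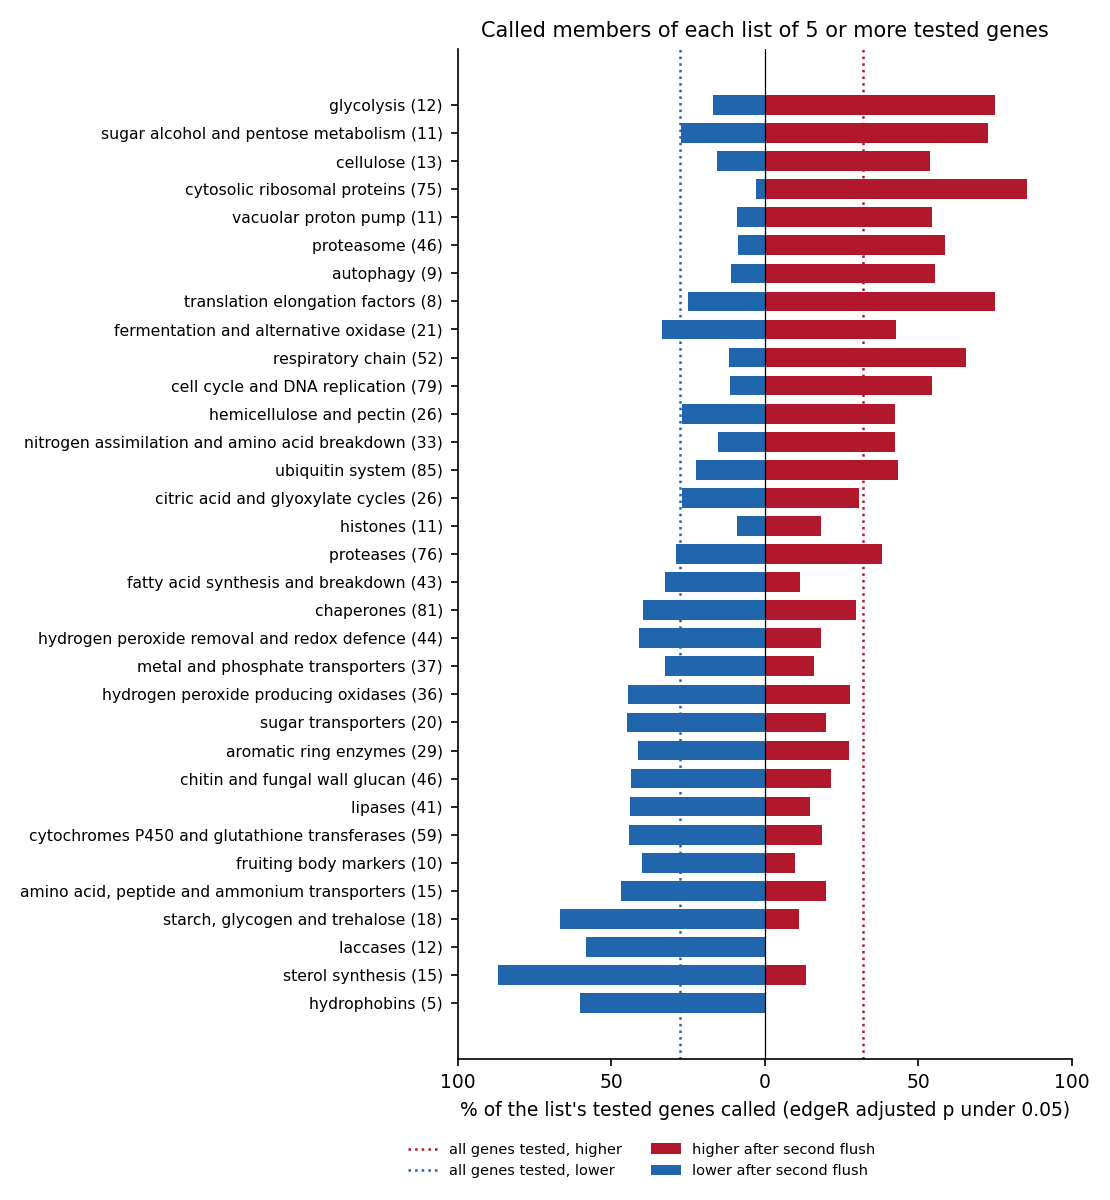
Percentage of each list's tested genes (number in brackets) called higher (red, to the right) or lower (blue, to the left) after second flush, with dotted lines for all genes tested at 31.9% higher and 27.6% lower. Cytosolic ribosomal proteins, glycolysis and elongation factors reach furthest to the right, and sterol synthesis, starch with glycogen and trehalose, hydrophobins and laccases furthest to the left.

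**Figure D4:**
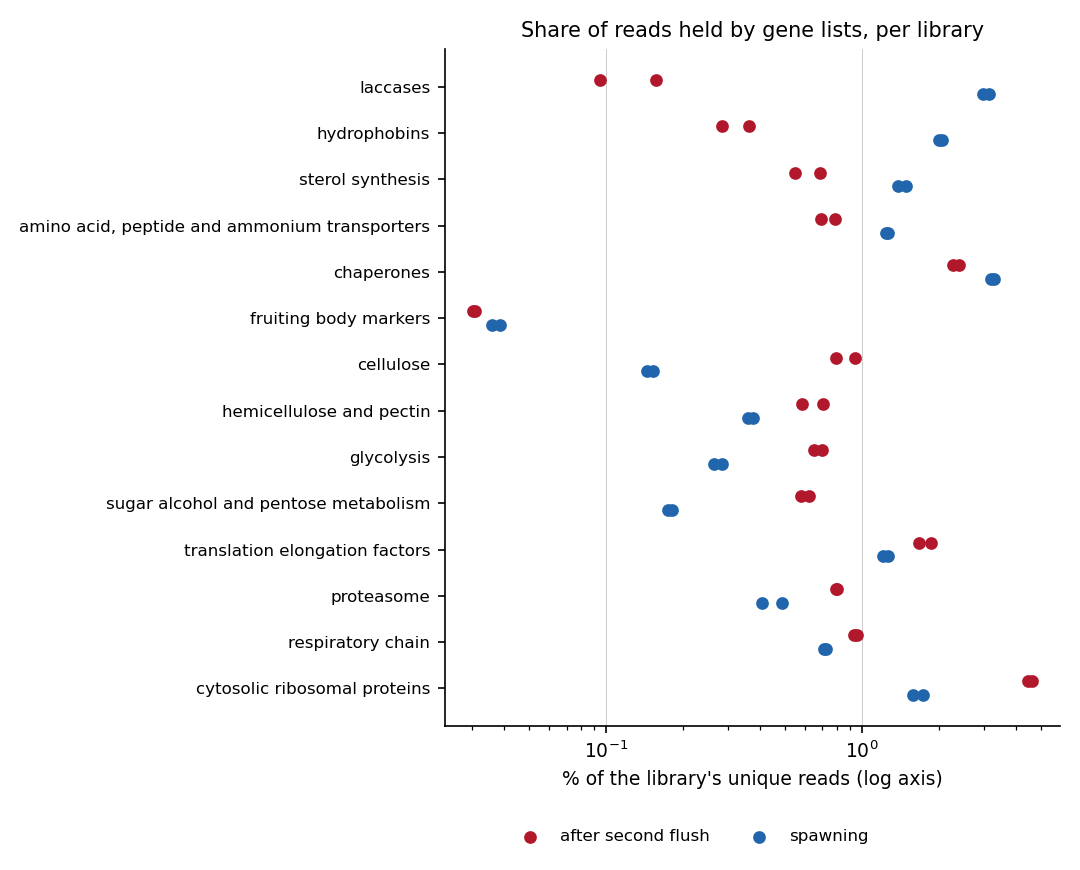
Percentage of each library's unique reads held by 14 gene lists, on a log axis, with the 2 after second flush libraries in red above the 2 spawning libraries in blue. The libraries of a stage lie close together and the stages do not overlap in any of the 14 lists, with laccases from 0.0947% to 0.156% after second flush against 2.99% to 3.14% at spawning. The 14 are a selection, and lists not drawn include some that overlap. Proteases, for example, held 1.73% and 1.67% after second flush, against 1.76% and 1.66% at spawning.

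Some genes were close to silent at 1 of the stages. Between the stages, 11 genes had a mean of at least 10 RPKM after second flush and at most 1 RPKM in each spawning library, and 10 genes showed the converse. Of these, 3 and 2 had a description. The genes named next were not chosen by these limits, and several, such as genes 122757 and 196228, lie outside them. The undescribed gene 122757 had 1752 and 1859 RPKM after second flush, against 1.74 and 1.51 RPKM at spawning (log2 change 9.80 ± 1.56, edgeR adjusted p = 0.0013). The undescribed gene 194696 had 371 and 270 RPKM after second flush, against 0.514 and 0.503 RPKM at spawning (log2 change 8.95 ± 1.12, edgeR adjusted p = 0.00033). The undescribed gene 194858 also rose (log2 change 7.43 ± 0.93). None of these had more than 2 RPKM in a spawning library. At the other end, undescribed gene 137057 had 1.02 and 0.889 RPKM after second flush, against 1780 and 1875 RPKM at spawning (log2 change −11.18 ± 0.39, edgeR adjusted p = 2.6e-08), the largest log2 change among the genes named here. Undescribed gene 196228 had 8.27 and 4.33 RPKM after second flush, against 3908 and 4175 RPKM at spawning (log2 change −9.63 ± 0.45, edgeR adjusted p = 4e-07). For undescribed gene 138066, with 3 reads in all after second flush against 2214 at spawning, the reads per library total were 924 times as many at spawning (95% exact interval 316 to 4482, counting error only). A gene whose weak match names clathrin heavy chain (gene 180174) had 0.833 and 1.66 RPKM after second flush, against 801 and 821 RPKM at spawning (log2 change −9.63 ± 0.23, edgeR adjusted p = 3.6e-10). Methylisocitrate lyase (gene 192813), which breaks down propionate-derived carbon, fell as well, with 2.73 and 2.96 RPKM after second flush, against 68.3 and 71.2 RPKM at spawning (log2 change −4.91 ± 0.21, edgeR adjusted p = 6.1e-08). The spawning libraries were near each other in all of these falls. Among described rises outside the lists, GMP synthase (gene 191535), which makes the guanine nucleotide, had 190 and 282 RPKM after second flush, against 16.2 and 11.9 RPKM at spawning (log2 change 3.77 ± 0.37, edgeR adjusted p = 3.1e-05). A gene annotated as aflatoxin B1 aldehyde reductase (gene 115724) had 31.3 and 27.6 RPKM after second flush, against 1.08 and 1.19 RPKM at spawning (log2 change 4.38 ± 0.36, edgeR adjusted p = 2.2e-06). Of the 5249 called genes 50.7% had a description, 53.6% of the higher and 47.5% of the lower ones.

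Placed among all 6 stages, the compared ends were reached by different paths, which is given here as levels only because the stages share libraries with the test. Of the 2434 genes called lower, 1482 had their highest mean RPKM of the 6 stages at spawning. Of the 2815 called higher, 530 had their highest mean after second flush, 939 at first flush and 1102 after first flush. Over all 8814 tested genes, the highest mean came at spawning for 1615 and after second flush for 846. It came at first flush for 2705 and after first flush for 2416, so many genes peaked there whatever their call. Laccase-1 averaged 24.7 RPKM at pinning, 548 at first flush, 19 after the first flush and 13 in the second, so its low level at pinning was followed by a higher one at first flush. Cutinase 190200 stayed at means of 2.36 to 2.64 RPKM from pinning to second flush. Manganese peroxidase averaged 149 RPKM at pinning and 32.7 to 105 RPKM in the 3 stages after it.

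The wall-degrading genes that were high after second flush had already been high once. Exoglucanase 194521 averaged 190 RPKM at pinning, 2513 at first flush, 109 between the flushes and 98.1 in the second flush. Xylanase 196181 averaged 219, 2862, 66.7 and 97.8 RPKM at the same stages. Their end levels were thus below first flush and far above second flush. Enolase averaged 439 RPKM at pinning and between 460 and 663 RPKM in the next 3 stages. Ribosomal protein S25e was at 2181 to 3321 RPKM from pinning to second flush, so spawning was its low point. Hydrophobin 193057 had means of 17191 RPKM at pinning and 10073 RPKM at second flush, and its lowest mean of the 6 stages came after second flush.

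**Figure D5:**
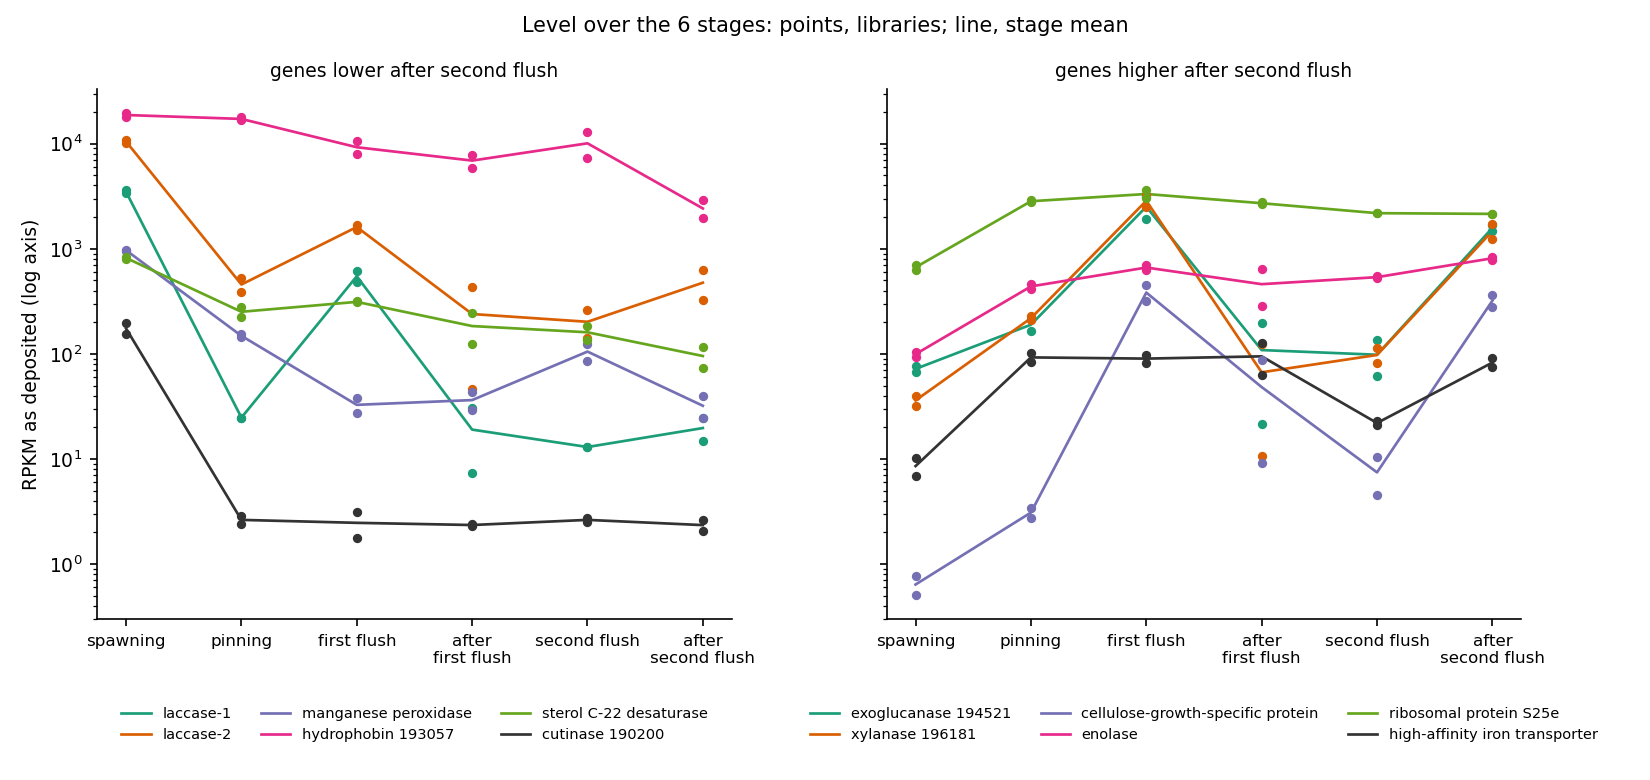
Level in RPKM (log axis) of 6 genes lower after second flush (left panel) and 6 genes higher after second flush (right panel) over the 6 stages in order of sampling, with points for libraries and lines through the stage means. Laccase-1 and laccase-2 dip at pinning and peak again at first flush, and exoglucanase 194521, xylanase 196181 and the cellulose-growth-specific protein are high at first flush and after second flush and low between them.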

How the data were processed

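RNA from compost was sequenced in 12 libraries, 2 at each of 6 stages, and 4 of them are compared here. Per the file headers, each deposited file lists the authors' counts of uniquely placed reads per gene together with RPKM, and genes without a read are absent, so an absent gene was set to 0. The deposited RPKM values are the count over gene length and the library's total unique reads, with no further scaling between libraries. The choice of aligner, genome build and strand setting was not given in the sources used here, so reads of overlapping or antisense genes cannot be told apart.

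Counts of all 12 libraries were fitted with edgeR 4.0.16 (R 4.3.3), with 1 term per stage, TMM scaling, filterByExpr (minimum count 10, minimum total 15), a robust quasi-likelihood fit with 6 residual degrees of freedom and Benjamini-Hochberg adjustment over 8814 genes. The standard error is the log2 change over the square root of the F statistic. Alternatives used DESeq2 1.42.0, limma 3.58.1 on log2 RPKM (pseudocounts 1 and 0.1, mean of at least 1 RPKM), other scalings, no filter, the 4 libraries alone, a replicate block, and each library left out. The code was tested on simulated data.

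Gene IDs are those of the files. Of 9502 genes, 99.3% matched a RefSeq locus tag of the H97 assembly, a strain other than A15, and 44.7% had a description (384 by protein name and 3860 by KEGG text, of which 343 are weak matches with an E value above 1e-10). No sequence is printed. The comparison, the gene lists and their word patterns were chosen with earlier results of these data known, and the patterns were adjusted once the annotation had been seen. Genes are named by a rule: the 12 largest rises and falls among described called genes without overlap and averaging 20 CPM or more in the stage where they are higher, the 5 most abundant of each stage, the largest rise, largest fall and most abundant gene of each list, 3 undescribed genes each way, and the lignin enzymes regardless. The other examples were chosen after their values were seen.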

Additional observations from a re-analysis of the deposited data

How the results depend on the processing

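No named gene reversed under the 13 other settings. Genes called lower numbered 1528 with library total scaling, and 1526 and 1496 with limma on log2 RPKM at pseudocounts of 1 and 0.1 (RPKM is itself scaled by library total), against 2434; genes called higher numbered 3803, 3799 and 3805, against 2815. DESeq2 called 2454 higher and 2488 lower, no filter on low counts 2837 and 2367, and the 4 libraries fitted alone 2847 and 2606. Leaving out any 1 of the 4 libraries gave 2221 to 2546 higher and 1828 to 2122 lower, with the stage of the lone library assumed to vary like the others. Of 174 named genes called, 155 kept their call under every setting that gave an adjusted p. Library total scaling moved 18 of 68 list counts by over 1.5 times, and leaving out spawning replicate 2 moved 9. The labels do not tell if replicate numbers pair libraries across the stages. Deviations of replicate 1 from the stage means correlated at 0.0468 between the compared stages, and at −0.239 to 0.204 over all stage pairs. Pairing was not tested beyond these values. A fit with the replicate block called 2784 higher and 2384 lower over 12 libraries and 2960 and 2732 over the 4. With 2 libraries a stage, genes with few reads at either end have wide intervals and changes near 0.30 on the log2 scale depend on scaling.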

Other observations

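Genes for iron uptake went both ways. A high-affinity iron transporter (gene 40806), a plasma membrane permease, rose, with 90.4 and 74.9 RPKM after second flush, against 10.3 and 6.84 RPKM at spawning (log2 change 2.97 ± 0.32, edgeR adjusted p = 4.1e-05), and the Fet3 ferroxidase (gene 225781), the oxidase that works with such permeases in yeast, rose too, with 85.5 and 84.5 RPKM after second flush, against 21.3 and 20.5 RPKM at spawning (log2 change 1.72 ± 0.27, edgeR adjusted p = 0.0004). Both averaged about as much at pinning and first flush as at the end (92.6 and 90.2 RPKM for the transporter), and their means were 22 and 20.8 RPKM at second flush. A siderophore-iron symporter (gene 187797) was called lower (log2 change −0.58 ± 0.13), as was a metal iron transporter (gene 196405, log2 change −0.73 ± 0.27), and both of these calls were lost with library total scaling. The metal iron transporter was also not called without spawning replicate 2 or after second flush replicate 2 (edgeR adjusted p = 0.24 and 0.25). The whole metal and phosphate transporter list, these genes included, had 6 of 37 tested genes higher and 12 lower (median log2 change −0.19), and 11 higher and 7 lower with library total scaling. An inorganic phosphate transporter (gene 183903) rose at a low level, with 16.6 and 31.8 RPKM in the after second flush libraries and 1.68 and 0.234 RPKM in the spawning libraries (log2 change 4.37 ± 1.01, edgeR adjusted p = 0.0074), and its libraries differed widely within each stage. Its call was lost in the 4-library fit with the replicate block.

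Of 11 tested histone genes 2 rose and 1 fell, against 6 higher and 1 lower with library total scaling and 6 higher with limma. Histone H3 (gene 136889), with 155 and 154 RPKM after second flush, against 49.4 and 41.6 RPKM at spawning (log2 change 1.47 ± 0.26, edgeR adjusted p = 0.00061), and histone H4 (gene 136892), with a log2 change of 0.87 ± 0.13, rose, and histone H1 (gene 190708) fell, with 33.3 and 31.6 RPKM after second flush, against 47 and 46.3 RPKM at spawning (log2 change −0.83 ± 0.15, edgeR adjusted p = 0.00073). A lipase (gene 115977) was carried by 27 and 14 reads after second flush and 0 and 1 reads at spawning, a ratio of 32.8 per library total whose 95% interval (5.56 to 1325, counting error only) shows how little those reads fix.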
